A study of Mus musculus with 9 samples.

Results

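Immunoglobulin adhesion molecules are cell surface proteins whose extracellular part is built of immunoglobulin domains and that hold cells to each other, to leukocytes or to the matrix. Genes of 9 of them were followed here by name (Vcam1, Icam1, F11r, Alcam, Ncam1, L1cam, Bcam, Cadm1 and Ceacam1), and all 9 were among the 15384 genes of the deposited count table. The samples were 9 RNA-Seq libraries of MyC-CaP, a mouse prostate cancer line that was established from a tumor of a mouse carrying human MYC under a probasin promoter. All cells were kept in medium without serum and calcium for 6 to 12 hours and were then collected at 0, 12 or 24 hours with 100 ng/mL recombinant mouse asporin (ASPN), a protein secreted by tumor fibroblasts, with 3 libraries per time. The labels name ASPN as the treatment of the 0 hour libraries too, and these served as time 0. No library of cells kept for 12 or 24 hours without ASPN was analysed here, so ASPN and the hours after starvation cannot be told apart. All libraries come from a single cell line plated in triplicate wells and labeled as biological replicates, so that p-values measure only the spread among these 3, which may be technical.

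The 9 genes were selected on their names with the log2 fold changes of earlier work on these libraries known, in all 3 comparisons of times. Their values are therefore given as a description, with fold changes and standard errors (SE) but without p-values.

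Members of this superfamily differ in what they bind. VCAM1 and ICAM1 are inducible on endothelium and epithelium and are bound by integrins of leukocytes, and NF-kB is known to drive both genes. F11r encodes JAM-A, a protein of epithelial tight junctions, and Cadm1 and Ceacam1 encode molecules that bind their own kind on neighboring epithelial cells. Ncam1 and L1cam are best known from nerve cells, where they guide axons and bundle them. Alcam encodes a ligand of CD6 on T cells, and Bcam encodes a receptor for the laminin alpha 5 chain.

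The counts on the genes of the table summed to 41881191 to 52993821 per library. Levels are CPM, counts relative to the library total, scaled with TMM factors over the 9 libraries, with a range of 1.04 to 1.07 in the time 0 libraries, 1.04 to 1.05 after 12 hours and 0.899 to 0.914 after 24. Means are given ± SD over the 3 libraries of a time. A floor of 3 counts was set, under which a gene was treated as not detectable, and this floor covers counting error only. The floor corresponds to 0.0566 to 0.0716 CPM from the library totals alone, without the TMM factors used for the levels. The labeled epithelial identity held only in part. Krt8 (1162 to 2038 counts per library), Krt19 (3915 to 7001) and Cldn4 (166 to 265) were expressed, whereas Krt18 (2 to 22), the usual partner keratin of Krt8, Epcam (0 to 1), Cldn7 (0 to 2) and Cdh1 (0 to 10), which encodes E-cadherin, were at or near the floor. The 7 epithelial markers summed to 108 to 137 CPM at time 0, 127 to 133 after 12 hours and 166 to 193 after 24, and the part of this difference in the results was not tested. Of the prostate markers, Hoxb13 had 3129 to 5021 counts, while Tmprss2 (0 to 1) was not detectable. Endothelial and leukocyte markers, of cells in which Vcam1 and Icam1 are also known, were low. The 3 listed endothelial markers found in the table (Pecam1, Cdh5 and Tek) had summed levels of 0.110 to 0.145 CPM in the time 0 libraries, 0.0656 to 0.183 after 12 hours and 0.0414 to 0.122 after 24. The 5 leukocyte markers summed to 0.415 to 0.922, 0.416 to 0.667 and 0.684 to 0.844 CPM, in the same order of times. The 3 fibroblast markers were higher, at 13.0 to 14.1, 12.2 to 12.5 and 9.09 to 10.3 CPM, nearly all of it Pdgfra (350 to 689 counts per library), while Dcn had 7 to 29 counts and Col1a1 0 to 8. Their part in the levels of Vcam1 and Icam1 was not tested. Among the 5 neural markers Rbfox3 had 4518 to 6514 counts per library and the other 4 had at most 34. In bulk libraries a smaller number of expressing cells and less RNA per cell cannot be told apart.

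The 9 genes fell into 3 classes by level. Cadm1, F11r, Ceacam1 and Ncam1 were well expressed at every time and stayed within 1.1-fold of time 0. Vcam1 and Icam1 were low at time 0 and many-fold higher at 12 and 24 hours. Alcam, L1cam and Bcam had at most 16 counts in a library and did not pass the filter on low counts (edgeR's filterByExpr), so that 6 of the 9 were fitted. Calls required a change of at least 1.5-fold and, by the quasi-likelihood test of edgeR over all genes that passed the filter, a BH (Benjamini-Hochberg) adjusted p no higher than 0.05. At 12 hours 182 of 11410 genes (1.60%) were called relative to time 0. Of the 6 fitted members, 2 met these thresholds at 12 hours, Vcam1 and Icam1, both higher. At 24 hours 3298 of 11444 genes (28.8%) were called, and the same 2 members met the thresholds, both higher. Between 12 and 24 hours 2924 of 11394 genes (25.7%) were called, and Vcam1 alone among the members met the thresholds. Because these comparisons belong to those by which the genes were chosen, nothing is read from the counts. Libraries of the 2 times did not overlap for 2 of the 6 members at 12 hours (27.0% of all genes fitted), for 3 at 24 hours relative to time 0 (73.9%) and for 2 at 24 hours relative to 12 hours (73.9%). The comparisons with time 0 share its 3 libraries.

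**Figure D1:**
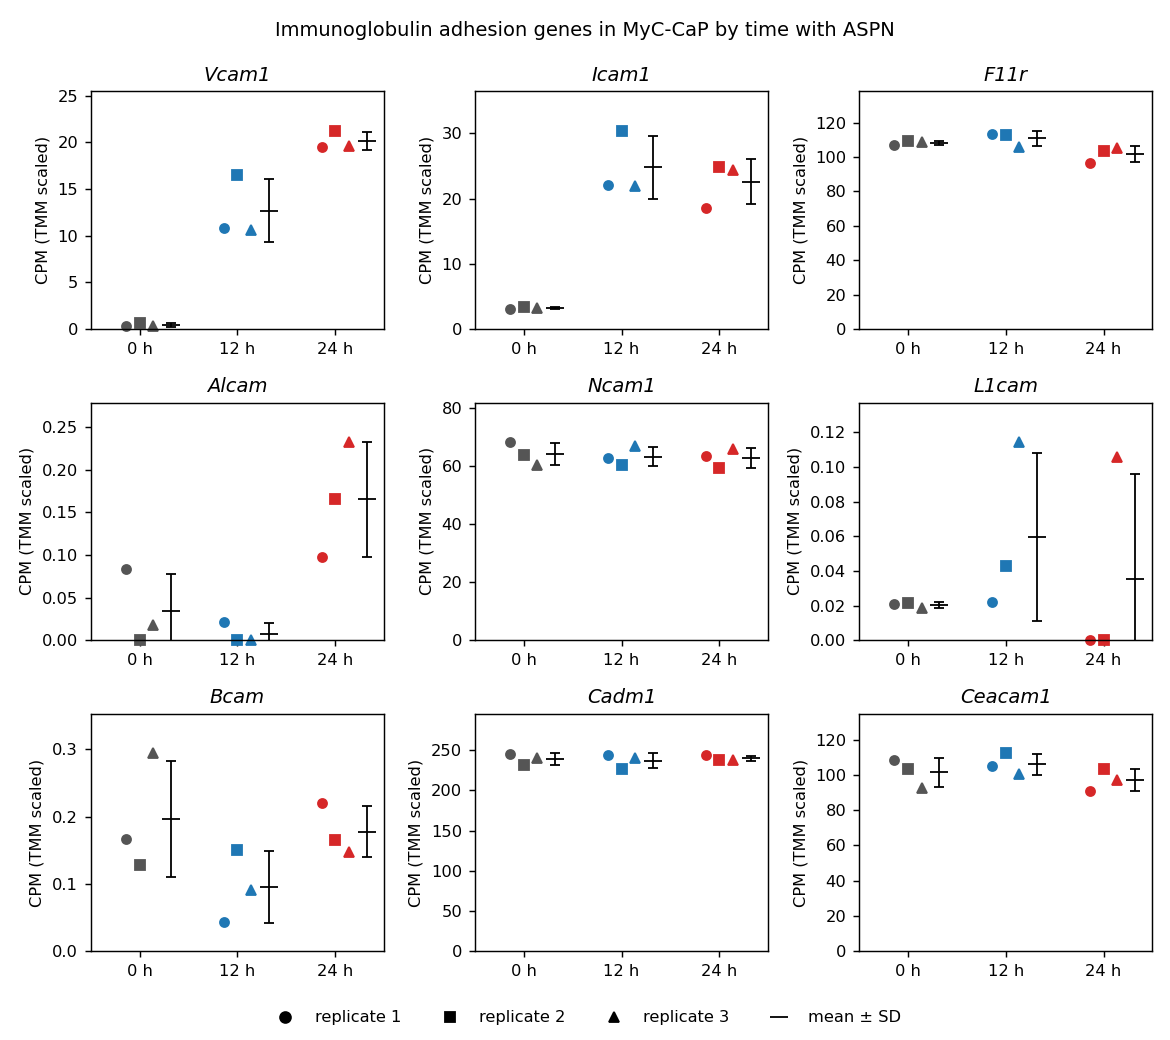
Each panel gives 1 gene, with CPM (TMM scaled) on a linear axis from 0 against the time with ASPN, 1 symbol per library and the mean ± SD (n = 3) beside them, where an SD that reaches below 0 is drawn to the axis. Vcam1 and Icam1 lay near the axis at time 0 and far above it at 12 and 24 hours, the panels of F11r, Ncam1, Cadm1 and Ceacam1 are nearly level, and those of Alcam, L1cam and Bcam span less than 0.3 CPM.

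Vcam1 (ENSMUSG00000027962.14; chromosome 3, 116109949 to 116129688 on the minus strand in GRCm38) encodes the endothelial and stromal ligand of integrin alpha 4 beta 1. Its raw counts were 17, 29 and 17 in the replicates 1, 2 and 3 of time 0, 495, 769 and 466 at 12 hours, and 799, 1025 and 931 at 24 hours. On the CPM scale these were 0.353, 0.622 and 0.312 at time 0, 10.8, 16.6 and 10.7 at 12 hours, and 19.5, 21.2 and 19.6 at 24 hours. The 3 times did not overlap, and the library numbered 2 was the highest at each of them. The mean CPM of Vcam1 went from 0.429 ± 0.168 through 12.7 ± 3.36 to 20.1 ± 0.951. The log2 fold change relative to time 0 was 4.90 (SE 0.23; 29.9-fold) at 12 hours and 5.57 (SE 0.16; 47.5-fold) at 24 hours. These were the seventh and the sixth highest log2 fold changes of all genes fitted at those times. Between 12 and 24 hours Vcam1 was higher by a further 0.69 (SE 0.13; 1.61-fold on the linear scale). This step was close to the threshold of 1.5-fold. It fell below it with total-count scaling (0.47), with offsets for transcript length and GC content (0.57), without replicate 1 of 12 hours (0.5846) and without replicate 3 of 12 hours (0.5787), and it reached 0.93 without replicate 2 of 12 hours. Over all 17 alternatives the value at 12 hours was 4.66 to 5.25 and that at 24 hours 5.35 to 5.93, the highest in both cases without replicate 2 of time 0.

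Icam1 (ENSMUSG00000037405.8; chromosome 9, 21015985 to 21028817 on the plus strand) encodes a ligand of the leukocyte integrins LFA-1 and Mac-1. Its counts were 149, 155 and 178 at time 0, 1007, 1411 and 961 at 12 hours, and 761, 1201 and 1157 at 24 hours. Every library of 12 and 24 hours lay above those of time 0, while the values of 12 and 24 hours overlapped. In CPM, time 0 had 3.09, 3.32 and 3.27, 12 hours had 22.03, 30.4 and 21.97, and 24 hours had 18.6, 24.9 and 24.4. As for Vcam1, the library numbered 2 was the highest at each time. The mean CPM of Icam1 was 3.23 ± 0.120, then 24.8 ± 4.83 and finally 22.6 ± 3.50. Relative to time 0 the log2 fold change was 2.94 (SE 0.12; 7.70-fold) at 12 hours and 2.81 (SE 0.12; 7.04-fold) at 24 hours. The step from 12 to 24 hours was -0.11 (SE 0.12), smaller than its error, and its sign changed with the libraries and offsets used (-0.33 to 0.08). The Icam1 levels of 12 and 24 hours thus differed by less than the spread of the replicates, whereas Vcam1 was higher at 24 hours in every library. The antisense gene Gm47079 covers 511 bases (11.7%) of the Icam1 exons and Gm43109 covers 61 bases (0.688%) of those of Vcam1, and the strand setting of the counting is not given in the sources used here, so reads of these antisense genes cannot be told apart from those of the members.

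**Figure D2:**
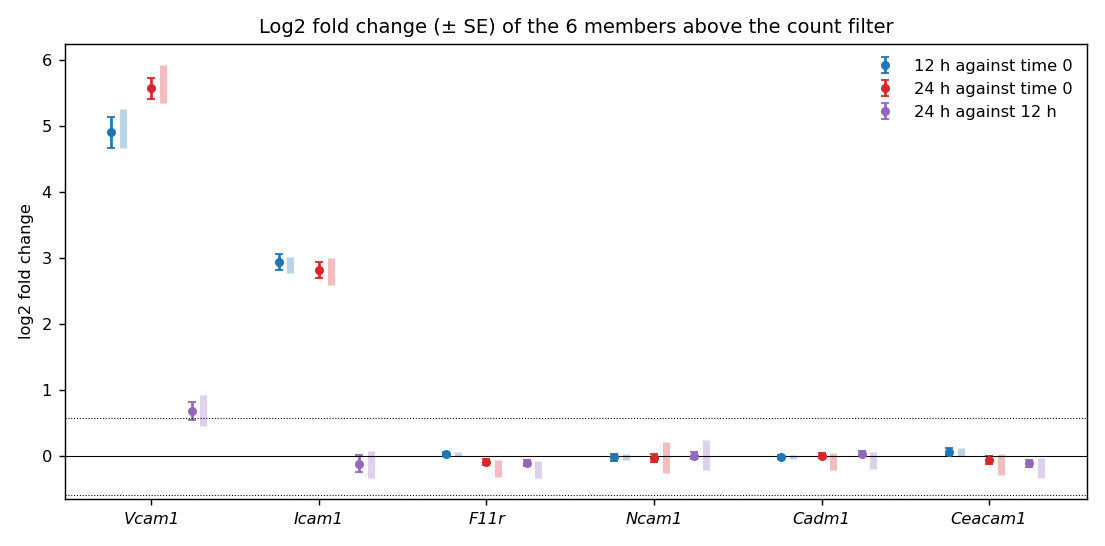
Points give the log2 fold change ± SE of the 6 fitted members in the 3 comparisons of times, the pale bars beside them the range over 17 alternatives each, and the dotted lines 1.5-fold. Vcam1 and Icam1 stand at 2.81 to 5.57 relative to time 0, and the other 4 genes lie between -0.10 and 0.07.

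The promoter of Icam1 is shown because the gene was among the most raised and its window held motifs of inflammatory transcription factors, and that of F11r as a member that stayed level. RefSeq promoter windows (GRCm38.p6) were found for 6 of the 9 members (Icam1, F11r, Alcam, L1cam, Bcam and Ceacam1), 7 windows in all, and the 250 bases before the annotated start were searched on both strands for 6 motifs. These were the NF-kB consensus of the textbook form, a shorter NF-kB form (GGNNNTTCC) that a consensus site can also contain and that was picked with the Icam1 site known, AP-1 (TGANTCA), an IRF element (GAAANNGAAA), a STAT element (TTCNNNGAA) and a TATA box (TATAAA). Both windows are written 5′ to 3′ in the direction of the gene, and the motifs found are in capitals.
Icam1, chr9:21015690-21015939, plus strand: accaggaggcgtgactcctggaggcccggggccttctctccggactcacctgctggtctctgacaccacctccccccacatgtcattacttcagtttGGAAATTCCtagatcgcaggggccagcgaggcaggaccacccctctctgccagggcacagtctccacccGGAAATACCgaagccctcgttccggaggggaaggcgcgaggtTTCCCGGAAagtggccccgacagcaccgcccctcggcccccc
F11r, chr1:171437311-171437560, plus strand: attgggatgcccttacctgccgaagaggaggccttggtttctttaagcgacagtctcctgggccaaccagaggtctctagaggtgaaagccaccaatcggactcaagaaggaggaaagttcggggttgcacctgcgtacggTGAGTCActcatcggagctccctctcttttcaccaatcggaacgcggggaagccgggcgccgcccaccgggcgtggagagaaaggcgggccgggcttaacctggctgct
In the Icam1 window the shorter NF-kB form was found 153 to 145 bases before the start (GGAAATTCC) and, read on the opposite strand, 84 to 76 bases before it (GGAAATACC). A STAT element (TTCCCGGAA) lay 42 to 34 bases before the start. The F11r window held an AP-1 motif (TGAGTCA) 109 to 103 bases before the start and none of the other 5. These 4 matches did not overlap each other, and the windows of Alcam, L1cam, Bcam and Ceacam1 held none of the 6 motifs. The Icam1 window held no match to the NF-kB consensus, the AP-1 motif, the IRF element or the TATA box. Among 32851 windows of the same length, 15.7% held the shorter NF-kB form, 7.02% the STAT element, 6.75% the AP-1 motif, 3.90% the NF-kB consensus, 2.98% the IRF element and 12.4% the TATA box. The matches are descriptions of the letters and were not tested for binding.

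The ratio of Vcam1 to Icam1 within a library does not depend on the scaling between libraries. With both levels divided by exonic length (8870 bases for Vcam1 and 4360 for Icam1), it was 0.0561, 0.0920 and 0.0469 in the 3 libraries of time 0, 0.242, 0.268 and 0.238 at 12 hours and 0.516, 0.420 and 0.396 at 24 hours. Icam1 therefore stayed the more abundant of the pair per length in all 9 libraries, and the share of Vcam1 grew from each time to the next, with no overlap.

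The patterns of both genes were compared with those of 10356 other genes with a mean of at least 50 counts, by the root mean square difference of log2 CPM centered on each gene's own mean over the 9 libraries. The 3 genes most like Vcam1 were Cxcl5 (a difference of 0.30), Csf3 (0.36) and Cxcl2 (0.58), which encode chemokines and a colony-stimulating factor. At time 0 Csf3 had a mean of 3.67 counts, close to the floor, so its log2 CPM there depends on the prior count of 2. Cxcl5 had 13.1 ± 2.01 CPM at time 0, 542 ± 112 at 12 hours and 658 ± 52.5 at 24 hours. The 3 genes most like Icam1 were Relb (0.24), an NF-kB subunit, Zc3h12a (0.28), which encodes the RNase Regnase-1, and Micall2 (0.36). Relb had 7.94 ± 0.935 CPM at time 0, 43.1 ± 3.39 at 12 hours and 43.2 ± 5.49 at 24 hours. The other two were also higher than time 0 at both times but differed between them, Zc3h12a with 4.59 ± 0.475, 39.6 ± 4.17 and 23.4 ± 4.37 CPM and Micall2 with 0.833 ± 0.245, 5.10 ± 0.986 and 7.96 ± 1.15 CPM. From 12 to 24 hours the log2 fold change was 0.03 for Relb, -0.74 for Zc3h12a and 0.67 for Micall2. Icam1 was the eighth most like Vcam1 (1.15), whereas Vcam1 ranked 348 in likeness to Icam1.

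The 4 well expressed members had levels that differed little between times. F11r (ENSMUSG00000038235.4; chromosome 1, 171437535 to 171464603) had 107, 109 and 109 CPM at time 0, 114, 113 and 106 at 12 hours, and 96.3, 103 and 105 at 24 hours. All 3 libraries of 24 hours lay below time 0 and below 12 hours, by a log2 fold change of -0.09 (SE 0.04) and -0.10 (SE 0.04), respectively. The value of F11r stayed below 0 under every alternative (-0.05 to -0.31 relative to time 0, the latter with total counts), and 12 hours overlapped time 0 (0.04, SE 0.03).

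Cadm1 (ENSMUSG00000032076.20; chromosome 9, 47530173 to 47858115), which encodes the adhesion molecule also known as a tumor suppressor of lung cancer, was level over time. It had 245, 231 and 240 CPM at time 0, 244, 227 and 241 at 12 hours, and 244, 238 and 238 at 24 hours. The times overlapped in every comparison, with log2 fold changes relative to time 0 of -0.0081 (SE 0.04) after 12 hours, 0.01 (SE 0.04) at 24 hours and 0.04 (SE 0.04) between them. With total counts as the only scaling, which lowered the median log2 fold change of all genes at 24 hours to -0.24, Cadm1 stood at -0.21.

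Ceacam1 (ENSMUSG00000074272.10; chromosome 7, 25461707 to 25477603) encodes a molecule with inhibitory tyrosine motifs in its tail. Its levels were 109, 103 and 92.4 CPM at time 0, 105, 112 and 101 at 12 hours, and 90.8, 103 and 97.2 at 24 hours, and the times overlapped. The log2 fold change relative to time 0 was 0.07 (SE 0.05) at 12 hours and -0.06 (SE 0.06) at 24 hours. Of the 31-base words in the Ceacam1 transcripts, 37.5% also occur in transcripts of other genes. Its relatives Ceacam2 and Ceacam10 shared the most words, but the share of each gene was not recorded. The Ceacam1 count is uncertain to the extent that shared reads were split or dropped. Ceacam2 itself had 9 to 18 counts per library.

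Ncam1 (ENSMUSG00000039542.16; chromosome 9, 49502136 to 49798925), a neural and neuroendocrine marker, was expressed at 68.1, 63.8 and 60.3 CPM at time 0, 62.6, 60.3 and 66.8 at 12 hours, and 63.3, 59.1 and 65.8 at 24 hours. These ranges overlapped throughout, and both log2 fold changes relative to time 0 were -0.02 (SE 0.05 after 12 and 0.06 after 24 hours). The value of 24 hours depended on the scaling, from -0.25 with total counts to 0.21 with offsets for transcript length and GC content and the replicate block. It did not reach 1.5-fold under any alternative. The antisense gene Gm11149 overlaps 417 bases (4.81%) of the Ncam1 exons.

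Alcam, L1cam and Bcam were at or near the floor of detection. Alcam (ENSMUSG00000022636.13; chromosome 16, 52248996 to 52454074), a ligand of CD6 on T cells, had 4, 0 and 1 counts at time 0, 1, 0 and 0 at 12 hours, and 4, 8 and 11 at 24 hours. All 3 libraries of 24 hours were above the floor of 3 counts, compared with 1 library of time 0 and none of 12 hours, where the level was not detectable at this depth. L1cam (ENSMUSG00000031391.18; chromosome X, 73853778 to 73896105) had 1, 1 and 1 counts at time 0, 1, 2 and 5 at 12 hours, and 0, 0 and 5 at 24 hours. Only replicate 3 of 12 hours and replicate 3 of 24 hours exceeded the floor for L1cam. Bcam (ENSMUSG00000002980.14; chromosome 7, 19756131 to 19771016) had 8, 6 and 16 counts at time 0, 2, 7 and 4 at 12 hours, and 9, 8 and 7 at 24 hours. Its values overlapped between all times and amounted to at most 0.294 CPM. No fold change is given for these 3 genes. Without the filter on low counts Alcam met the call thresholds at 24 hours relative to both earlier times, while L1cam and Bcam did not.

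Levels of different genes were compared as CPM per kilobase of merged exons. At time 0 the order was F11r (40.6 ± 0.411), Cadm1 (22.9 ± 0.673), Ceacam1 (17.5 ± 1.42), Ncam1 (7.40 ± 0.454) and Icam1 (0.741 ± 0.0275), each separate from the next in all libraries. Below these, Bcam (0.0613 ± 0.0271) and Vcam1 (0.0484 ± 0.0190) overlapped, as did Alcam and L1cam. At 12 hours Icam1 (5.69 ± 1.11) reached the range of Ncam1 (7.29 ± 0.380), with its highest library at 6.97 and the lowest Ncam1 library at 6.96. At 24 hours Icam1 (5.19 ± 0.803) lay below Ncam1 (7.24 ± 0.393) in all libraries, and Vcam1 (2.27 ± 0.107) remained below Icam1. Vcam1 had passed Bcam, whose level was 0.0298 ± 0.0167 at 12 hours and 0.0556 ± 0.0117 at 24 hours. Summed over the 9 genes, the level was 89.3 ± 1.76 at time 0, 97.0 ± 2.60 at 12 hours and 92.7 ± 3.19 at 24 hours. F11r, the tight junction gene, made up 45.6 ± 1.28% of this sum at time 0 and 41.2 ± 0.598% at 24 hours. Vcam1 and Icam1 together remained a minor part, with Icam1 at 0.830 ± 0.0442% and Vcam1 at 0.0542 ± 0.0213% at time 0, and 5.58 ± 0.690% and 2.45 ± 0.100% at 24 hours.

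**Figure D3:**
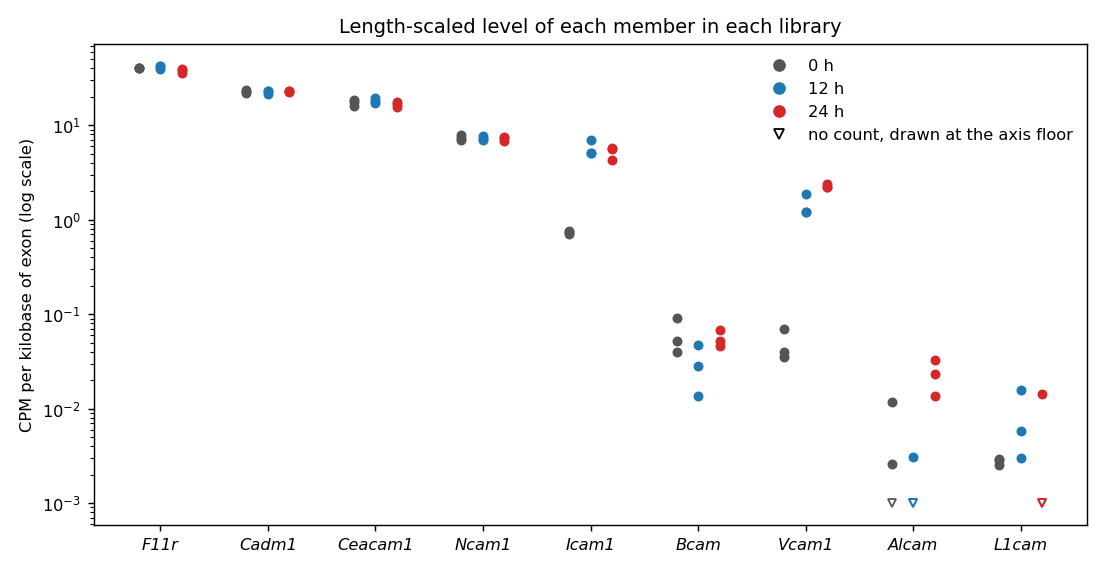
The level of each gene in each library is plotted as CPM per kilobase of exon on a log axis, colored by time, with genes ordered by their mean at time 0 and open triangles for libraries without a count. F11r, Cadm1, Ceacam1 and Ncam1 form level rows at the top, Icam1 rises from 0.741 to 5.69 and 5.19 and Vcam1 from 0.0484 to 1.43 and 2.27, and Alcam and L1cam scatter around a few counts.

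Genes that are related to the 9 members, or that bind or process their products, were taken from 5 lists written by family name and known role. Over the 5 lists, 3 of 81 fitted genes were called at 12 hours, 24 of 82 at 24 hours (12 higher and 12 lower) and 17 of 83 between 12 and 24 hours, beside 1.60%, 28.8% and 25.7% of all genes fitted. The median log2 fold change of these list genes was 0.05 at 12 hours and 0.07 at 24 hours, compared with -0.0049 and -0.02 over all genes. The direction of the list calls depended on the scaling. At 24 hours relative to time 0 there were 9 higher and 19 lower with total counts and 13 higher and 7 lower with the length and GC offsets. From 12 to 24 hours, 8 were higher and 9 lower, compared with 4 and 22 with total counts and 11 and 7 with the offsets.

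**Figure D4:**
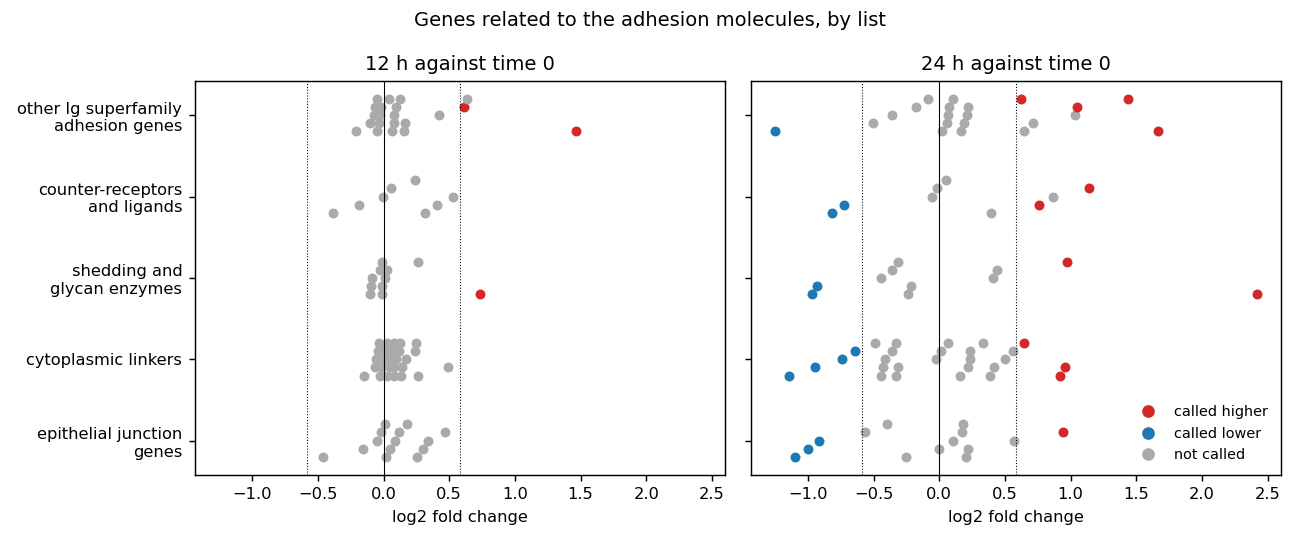
Each point is a fitted gene of 1 of the 5 lists, with its log2 fold change relative to time 0 at 12 hours (left) and 24 hours (right), in red or blue where called higher or lower, and with dotted lines at 1.5-fold. At 12 hours 3 points are colored, and at 24 hours 12 lie called on each side.

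Of 57 other adhesion genes of the superfamily, 42 were in the table and 21 passed the filter at 12 and at 24 hours. At 12 hours 2 of them were called, both higher. Mpzl1, which encodes a relative of myelin protein zero that recruits the phosphatase SHP-2, stood at 32.8 ± 0.838 CPM in the time 0 libraries and rose with a log2 fold change of 0.61 (SE 0.04; edgeR, adjusted p = 4.2e-08), which fell just short of 1.5-fold without replicate 2 of 12 hours (0.58). Icam5, the telencephalic member of the ICAM group, was named after its values were seen, as its mean was under 50 counts. It lies 3256 bases downstream of Icam1 (chromosome 9, 21032073 to 21039036) and had 29, 18 and 26 counts at time 0, 63, 71 and 50 at 12 hours and 42, 61 and 79 at 24 hours. Its log2 fold change was 1.47 at 12 hours (SE 0.25; edgeR, adjusted p = 0.00072) and 1.44 at 24 hours (SE 0.29; edgeR, adjusted p = 0.00057).
At 24 hours 5 of the 21 were called, 4 higher and 1 lower. Pvr, which encodes the nectin-like poliovirus receptor, rose to 97.1 ± 8.05 CPM from 30.7 ± 1.65, by a log2 fold change of 1.67 (SE 0.06; edgeR, adjusted p = 1.8e-10). Mpzl1 (1.05) and Bsg (0.63), which encodes basigin, rose as well. The value of Bsg fell short of 1.5-fold with total counts (0.40) and after the length and GC offsets (0.57). Nectin1, an adherens junction protein, fell from 13.3 ± 0.976 to 5.55 ± 0.262 CPM, by a log2 fold change of -1.25 (SE 0.09; edgeR, adjusted p = 6.3e-08). Between 12 and 24 hours Pvr rose (1.27) and Nectin1 fell (-1.30), the 2 genes of 22 that were called. Of relatives of single members, Cadm4 had 12.9 ± 1.30, 12.0 ± 0.531 and 11.3 ± 1.13 CPM at 0, 12 and 24 hours, Nectin2 had 82.4 ± 1.94, 86.6 ± 0.842 and 88.4 ± 9.23, and none of their differences was called. Jam2 (0 to 2 counts per library), Jam3 (0 to 1) and Icam2 (0 to 1) were not detectable, whereas F11r, of the same JAM group, had 3940 to 5915.

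Among the 21 listed counter-receptors and ligands of the members, 19 were in the table and 8 were fitted at 12 hours, of which 0 were called by edgeR, DESeq2 or limma-voom (5 had an unadjusted p under 0.05). Itga4, the alpha chain of the VCAM1 receptor, was not analysed here. Itgb1, its beta chain, had 709 ± 10.4, 702 ± 6.14 and 698 ± 22.5 CPM at 0, 12 and 24 hours, with log2 fold changes of -0.0081 and -0.02. The chains of the ICAM1 receptor LFA-1 were near the floor, Itgal with 1 to 9 and Itgb2 with 6 to 24 counts per library. At 24 hours 4 of 9 fitted genes were called. Lama5, the laminin chain that BCAM binds, rose from 587 ± 41.3 to 990 ± 48.9 CPM, a log2 fold change of 0.76 (SE 0.06; edgeR, adjusted p = 4.7e-08), and fell short of 1.5-fold with total counts (0.54). Epha2, a receptor tyrosine kinase, rose by 1.14 on the log2 scale. Itgb3, whose product pairs with the alpha v chain to bind L1CAM, fell by 0.81 and Gfra1, the receptor that joins NCAM1 in GDNF binding, fell by 0.72 on the log2 scale. Both were at -0.57 after the length and GC offsets and then not called. From 12 to 24 hours Epha2 (0.76) and Lama5 (0.73) rose, neither of them past 1.5-fold with total counts (0.53 and 0.50), as did Itgb2 from 6 to 8 counts per library to 13 to 24 (1.38, SE 0.46; edgeR, adjusted p = 0.016), which was named after its values were seen. The Itgb2 call was lost without the filter on low counts and without replicate 1 or 3 of 12 hours or replicate 2 of 24 hours (1.12 to 1.37).

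Among the enzymes that release ectodomains or modify their glycans, 13 of 16 were in the table and 11 were fitted. Adam10 and Adam17, the sheddases known for several of these adhesion molecules, did not reach 1.5-fold. Adam10 had 203 ± 2.30, 201 ± 5.98 and 163 ± 6.14 CPM at 0, 12 and 24 hours, and its log2 fold change at 24 hours was -0.32 (edgeR, adjusted p = 1.1e-05). Adam17 had 98.5 ± 3.04, 100.3 ± 4.12 and 83.1 ± 1.92 CPM, a log2 fold change of -0.24 at 24 hours. Adam8, a protease best known from leukocytes, was the gene called at 12 hours, at 4.87 ± 0.100 CPM compared with 2.95 ± 0.574 at time 0 (log2 fold change 0.74, SE 0.14; edgeR, adjusted p = 0.0016). At 24 hours Adam8 stood at 15.6 ± 0.808 CPM, a log2 fold change of 2.42 (SE 0.13), and Rhbdl2, a rhomboid protease, rose by 0.97. Bace1, the beta-secretase, and Psen2, a gamma-secretase subunit, fell by 0.97 and 0.93 on the log2 scale. From 12 to 24 hours Adam8 and Rhbdl2 rose and Bace1 and Psen2 fell, and Rhbdl2 was not called with total counts (0.51).

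Of the cytoplasmic linkers 30 of 31 were in the table and 27 were fitted. At 12 hours 0 were called by edgeR, DESeq2 or limma-voom, while 13 had an unadjusted p under 0.05. The genes of the ERM proteins that tie ICAM1 and VCAM1 to actin were not called, Ezr going from 485 ± 3.91 to 509 ± 8.62 and 539 ± 12.1 CPM and Msn from 228 ± 8.25 to 243 ± 0.365 and 304 ± 7.33 CPM at 0, 12 and 24 hours. Rdx, the third ERM gene, was named after its values were seen and had a log2 fold change of 0.0006 at 12 hours, 0.56 at 24 hours and 0.58 from 12 to 24 hours, just under 1.5-fold. Msn was higher at 24 hours by a log2 fold change of 0.42, under 1.5-fold (edgeR, adjusted p = 9.2e-07). Tjp1, the scaffold ZO-1 of tight junctions to which JAM-A binds, had 186 ± 1.18, 203 ± 0.790 and 194 ± 6.31 CPM. At 24 hours 7 of the 27 linkers were called, of which 3 were higher, Tjp3 (0.96), Epb41l2 (0.92) and Actn1 (0.64). The other 4 were lower, among them Rapgef2 (-1.15), Epb41l1 (-0.95) and the polarity gene Pard3 (-0.74). After the length and GC offsets Epb41l1 (-0.45) and Pard3 (-0.31) were no longer called, and Actn1 was not called with total counts (0.42) or without replicate 2 of 24 hours (0.57). From 12 to 24 hours 5 linkers were called, Epb41l2 higher (0.70) and 4 lower, among them Rapgef2 (-1.06), Epb41l1 (-0.77) and Pard3 (-0.68). Epb41l2 did not reach 1.5-fold with total counts (0.47), nor did Epb41l1 (-0.28) and Pard3 (-0.26) after the offsets.

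The last list held epithelial junction genes outside the superfamily. Of 25 genes 23 were in the table and 14 were fitted, without Cdh1 and Epcam, whose counts are given above. At 12 hours 0 of the 14 were called by these 3 tools, and 6 had an unadjusted p under 0.05. At 24 hours 3 were lower and 1 was higher. Ctnnd1, which encodes p120-catenin, fell from 39.1 ± 1.37 to 19.5 ± 0.465 CPM, a log2 fold change of -1.003 (SE 0.06; edgeR, adjusted p = 3.8e-09). Cgn, which encodes the tight junction protein cingulin, fell by 0.92 on the log2 scale, and Marveld3, which had a mean of 35 counts and was named after its values were seen, fell by 1.10 on that scale. Pkp2, a desmosomal plakophilin, rose by 0.94. From 12 to 24 hours Cgn (-1.20) and Ctnnd1 (-1.07) fell and Pkp2 rose (0.85).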

How the data were processed

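Raw gene counts of 9 MyC-CaP libraries were used. Per the study's methods, paired-end reads of TruSeq mRNA libraries were trimmed by the authors with Cutadapt. They aligned them with STAR to GRCm38.p6 with Gencode vM24 and summarized them by gene using featureCounts. What they deposited is raw counts without normalization (quality control by FastQC 0.11.9 per the submitters' notes). How the 15384 genes were selected is not stated.

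For each comparison the 6 libraries of the 2 times were filtered with filterByExpr, scaled by TMM factors and fitted in edgeR (quasi-likelihood F-test, no block) (R 4.3.3, edgeR 4.0.16, limma 3.58.1, DESeq2 1.42.0). The calculation was tested on simulated counts with the same dispersion for every gene and changes of a fixed size in well expressed genes. That simulation does not cover genes with low counts or calls near the threshold. Exonic lengths and overlaps come from GENCODE M21 (GRCm38), matched by identifier for 15374 genes. Each SE was derived from the fit as the absolute log2 fold change divided by the square root of the F statistic. Log2 CPM used a prior count of 2. Promoter sequences are from RefSeq (GRCm38.p6).

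The members and lists were chosen with earlier results of these data known. From each list, up to 3 called genes per direction and comparison with a mean of at least 50 counts and no overlap were named, with a fixed set of direct partners. Libraries of 1 time differed beyond counting error (chi-square over its degrees of freedom 3.41 to 17.5). Alternatives were DESeq2's Wald test, limma-voom, RLE, upper-quartile and total-count scaling, no filter or a minimum of 10 counts per library, a joint fit of the 9 libraries, the replicate block, loess offsets for length and GC content (span 0.3) without and with the block, the adjusted p alone, and leaving out each library. Isoforms and protein sequences were not analysed here, and a few marker and list genes are not reported here.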

Additional observations from a re-analysis of the deposited data

How the results depend on the processing

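The values of Vcam1 and Icam1 relative to time 0 kept their direction and stayed past the thresholds under all 17 alternatives at 12 and at 24 hours. With total counts alone the median log2 fold change of all genes moved to -0.24 at 24 hours relative to time 0 and to -0.22 relative to 12 hours, and member values are read relative to it. Without the fold threshold 1178, 8119 and 8124 genes were called (12 and 24 hours relative to time 0, and 24 relative to 12 hours), with 25, 60 and 59 genes of the 5 lists. At 24 relative to 12 hours, 2 members passed without the fold threshold (1 higher and 1 lower), 2 without the filter on low counts (Vcam1 and Alcam), and 0 with total counts and with the length and GC offsets, and 26 list genes were called with total counts. Of all genes called at 24 hours, 1374 were higher and 1924 lower relative to time 0 and 1184 and 1740 relative to 12 hours, compared with 698 and 3008, and 484 and 2830, with total counts. With single libraries left out, 148 to 198, 3248 to 3312 and 2871 to 3003 genes were called in these 3 comparisons, 2 to 4, 24 to 27 and 18 to 21 list genes, and 2, 2 and 0 to 1 members, the 0 without replicate 1 or 3 of 12 hours.

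Under a replicate block 172, 3247 and 2926 genes were called, 3, 24 and 17 list genes and 2, 2 and 1 members. No call of a member, or of a list gene named by rule or as a direct partner, changed under the block alone. Icam5, Marveld3 and Rdx, named after their values were seen, were not compared singly. The deviations of same-numbered libraries had mean correlations of -0.02, -0.06 and 0.02, so the numbers were not treated as pairs.

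Single values were compared across the alternatives only for the list genes named by rule or as direct partners. These values crossed the call thresholds in both directions, 31 losing a call and 7 gaining one. The calls gained were Tjp3 at 12 hours without replicate 3 of 12 hours (0.59), Itgb3 (-0.63) and Gfra1 (-0.74) from 12 to 24 hours with total counts, and Tjp3 (0.71) and Actn1 (0.65) from 12 to 24 hours with the length and GC offsets, without and with the block.

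Among list genes named by rule or as direct partners, 23 values that were not called changed sign, and the cause was not tested. At 12 hours these were Ceacam2 (-0.3975 to 0.0389), Adam10 (-0.0347 to 0.0062) and Adam17 (-0.0023 to 0.0566), each as the range with single libraries left out. At 24 hours relative to time 0, total counts gave -0.0636 for Ezr, -0.15 for Tjp1 and -0.11 for Nectin2, Itgb1 was 0.0153 with upper-quartile factors and -0.0418 to 0.0032 with single libraries left out, and Ceacam2 was then -0.2325 to 0.1788. Between 12 and 24 hours, total counts gave -0.21 for Itgb1, -0.12 for Ezr, -0.17 for Nectin2 and -0.0785 for Ceacam2. Itgb1 was -0.0052 with all 9 libraries in one fit, -0.0139 and -0.0148 with the length and GC offsets without and with the block, and -0.0132 to 0.0310 with single libraries left out, Tjp1 was 0.0590 and 0.0586 with these offsets, and with single libraries left out Cadm4 was -0.1226 to 0.0162 and Nectin2 -0.0062 to 0.1328.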
